A study of Mus musculus with 16 samples.

Results

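The supraspinatus tendon of the mouse shoulder was compared with the flexor tendon of the forepaw, using 8 of the 16 RNA sequencing libraries of a study of 4 tendons. All samples came from C57BL/6J mice, an inbred laboratory strain, and no genotype or treatment separates them. The libraries labelled Supraspinatus (n = 4) and Flexor (n = 4) were taken by their tissue label and numbered by mouse, and all 8 were used. Age, sex and whether equal mouse numbers in both tendons mark the same animal were not stated in the labels, so p-values measure the spread between these samples.

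The supraspinatus tendon is a rotator cuff tendon that inserts on the humerus beside the shoulder joint and lifts the arm. The flexor tendons run through the wrist and into the digits, where they glide in synovial sheaths and bend over bone. Tendon is made by fibroblasts that lay down type I collagen fibrils, and its cells keep part of the positional gene code, above all of Hox genes, that patterned the limb from shoulder to digit.

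The count tables held between 86898889 and 107805065 reads on genes in Supraspinatus libraries and between 97242489 and 106573353 in Flexor libraries. Between 28834 and 29577 genes had a read in Supraspinatus libraries, against 30577 to 31570 in Flexor libraries. Of 21555 genes tested with edgeR's quasi-likelihood test, 9536 differed at a Benjamini-Hochberg adjusted p under 0.05, which is 44.2% of those tested. Of these, 5026 (23.3%) were higher and 4510 (20.9%) were lower in Supraspinatus, and 4436 (20.6%) passed with a log2 fold change of 1 or more in either direction. In 42.4% of genes tested the levels of the tendons did not overlap. More than 8-fold differences were found in 135 higher and 464 lower genes. Levels below are CPM, counts scaled to a common library total, with the TMM correction between libraries, and fold changes are log2 of Supraspinatus over Flexor with their standard error. Each gene list is described by its members that passed, to be read against these shares and against the median log2 fold change of all genes tested, -0.04. In the authors' deposited table, 5489 of 13452 genes passed for these tendons, and 5342 genes passed in both tables, each with one direction in both. The direction also varied with GC content, the share of G and C bases in a gene's longest protein-coding transcript. Of the 1513 tested genes with the most, 40.4% were higher and 16.5% lower in Supraspinatus, with a median log2 fold change of 0.24. Of the 1513 with the least, 22.3% were higher and 23.4% lower, with a median of -0.03. The cause was not tested.

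Both tendons held markers of other tissues, in different amounts. A list of 66 skeletal muscle markers took 20.3% ± 0.712 of Supraspinatus counts, against 12.7% ± 1.91 of Flexor counts (SD, n = 4 each). Schwann cell and nerve markers took 0.149% ± 0.0174 in Supraspinatus and 0.459% ± 0.154 in Flexor, and bone markers took 0.00387% ± 0.00176 in Supraspinatus and 0.109% ± 0.0395 in Flexor. Spp1 alone made 43.0% of the bone marker counts in Supraspinatus and 96.5% in Flexor, and without it the share was 0.00221% ± 0.000238 in Supraspinatus and 0.00378% ± 0.000681 in Flexor. Chondrocyte, epidermis, mast cell, adipocyte, endothelial, neutrophil and smooth muscle markers also took a smaller share in every Supraspinatus library than in any Flexor library. The shares of macrophage, lymphocyte, red blood cell and osteoclast markers overlapped between the tendons. Without the most counted member of each list, an alternative added after seeing the data, the adipocyte and neutrophil shares overlapped as well and the osteoclast shares no longer did. Without the muscle lists and mitochondrial transcripts 9410 genes passed, and with the muscle marker level as a covariate 3903 did. With the nerve marker level as a covariate, a fit added after seeing the data, 1 gene passed, 2123 were under an unadjusted p of 0.05, and 26 of the 189 genes given a fold change in the text changed sign. Neither marker level overlaps between the tendons, so these covariates and the tendon cannot be told apart, and the part of tissue content in the results below was not tested further. In bulk samples, fewer cells of a type and less RNA per cell cannot be told apart.

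**Figure D1:**
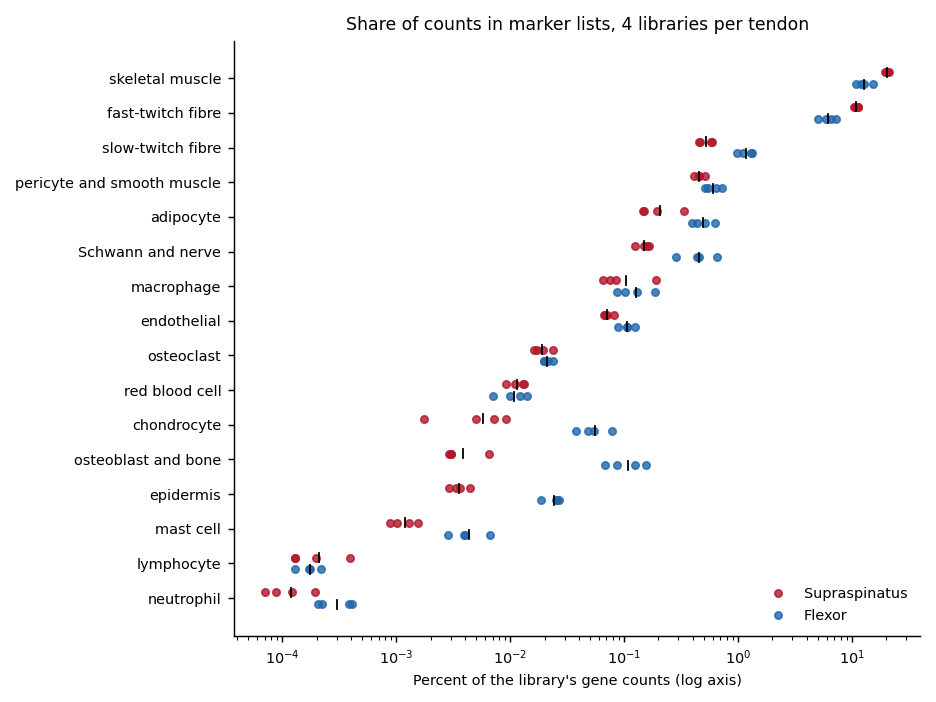
Percent of each library's gene counts that fell in 16 marker lists, on a log axis, with Supraspinatus libraries in red above Flexor libraries in blue and a bar at each mean of 4. Muscle markers sit between 19.5% and 21.3% in Supraspinatus and between 10.8% and 15.3% in Flexor, whereas bone markers, mostly Spp1 in Flexor, and chondrocyte, epidermis and nerve markers sit lower in Supraspinatus.

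The positional genes of the limb separated the tendons by shoulder against digit. Of 18 tested members of a list of distal limb genes, 2 were higher and 14 lower in Supraspinatus, with a median of -4.51. The list was chosen with earlier results of these data known, so its counts are a description. Hoxd13 (ENSMUSG00000001819, chr2:74668310-74671599), the last gene of its cluster and a determinant of digits, had 0.0413, 0.216, 0.222 and 0.0109 CPM in Supraspinatus libraries, against 7.04, 8.87, 7.57 and 9.54 CPM in Flexor libraries. No library of one tendon reached the range of the other, and the difference was -6.11 ± 0.54 (SE, adjusted p = 1.73e-05). Its cluster neighbour Hoxd11 (ENSMUSG00000042499, chr2:74679557-74687016), which with Hoxa11 patterns the forearm, had 0.0310, 0.0381, 0.245 and 0.0219 CPM in Supraspinatus, against 15.03, 16.9, 14.8 and 18.4 CPM in Flexor (-7.60 ± 0.50, adjusted p = 3.32e-06). Hoxa13 (ENSMUSG00000038203, chr6:52257694-52260880), the paralog of Hoxd13 in the Hoxa cluster, had 0.0310, 0.305, 0.0701 and 0.0657 CPM in Supraspinatus, against 5.63, 5.67, 6.34 and 6.77 CPM in Flexor (-5.74 ± 0.50, adjusted p = 1.6e-05). All 3 genes were at most 0.305 CPM in Supraspinatus and at least 5.63 CPM in Flexor. The lower genes also included Hoxd12 (-8.06 ± 0.57), Hoxa11 (-4.76 ± 0.30) and Hoxd10 (-4.26 ± 0.30). Sall1 (-7.98 ± 0.58), a zinc finger factor of the distal limb, Hand2 (-5.02 ± 0.45), a factor of the posterior limb bud, and Msx2 (-4.14 ± 0.39), a homeobox gene of the limb margin, were lower too. Evx2, which lies next to Hoxd13, had no read in any Supraspinatus library and 0.719, 1.01, 0.848 and 1.20 CPM in Flexor libraries. The exceptions that rose in Supraspinatus were Lmx1b (4.33 ± 0.40), which marks the dorsal side of the limb, and Lhx9 (2.65 ± 0.52), a LIM homeobox gene of the limb bud. Hoxd12 averaged 0.00811 CPM and Sall1 0.00826 CPM in Supraspinatus, scaled over all 16 libraries. Their fold changes rest on very few reads, and their standard errors do not make these sizes exact. Where a gene was near 0 in Supraspinatus, the size rested on single libraries. Without Supraspinatus replicate 1 the difference was -11.04 for Hoxd12 and -8.92 for Sall1, without replicate 2 it was -6.78 for Hoxa13, and without replicate 3 it was -9.04 for Hoxd11 and -5.64 for Hand2. Without Flexor replicate 2 it was 3.35 for Lhx9. Supraspinatus replicate 1 was the only library of its tendon with Hoxd12 reads. The value of -11.04 is thus set against no read and is not a measured size.

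The promoter of Hoxd13 is shown because the gene is the digit determinant of this group. The sequence is the RefSeq record of GRCm38.p6, chr2:74667975-74668274 on the plus strand, 250 bases before to 50 bases after the start, and capitals mark TATAAA, searched on both strands, with an overlapping TTTATA, its reverse complement. Of 32851 promoters of this length, 13.6% hold TATAAA on either strand, and a match is only a match of letters.
Hoxd13: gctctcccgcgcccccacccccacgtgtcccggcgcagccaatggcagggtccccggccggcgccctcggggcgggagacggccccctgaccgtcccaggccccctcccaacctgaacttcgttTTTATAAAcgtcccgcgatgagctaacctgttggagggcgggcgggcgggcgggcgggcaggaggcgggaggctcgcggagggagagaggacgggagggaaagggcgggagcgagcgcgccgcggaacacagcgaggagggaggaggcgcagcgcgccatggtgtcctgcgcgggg

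Along the Hoxa, Hoxb and Hoxd clusters the direction of the difference changed with position. In the Hoxa cluster 6 of 11 genes were higher and 3 lower, from Hoxa2 (2.79 ± 0.26) and Hoxa5 (2.41 ± 0.17) on the higher side, through Hoxa7 (0.57 ± 0.10) and Hoxa10 (-0.40 ± 0.07), to Hoxa13 on the lower side. Hoxa9, between them, had 16.6, 17.5, 18.4 and 19.2 CPM in Supraspinatus, against 13.2, 14.05, 16.3 and 17.6 CPM in Flexor, and did not pass (0.23 ± 0.11, adjusted p = 0.114). In the Hoxd cluster Hoxd3 (3.32 ± 0.37), Hoxd8 (1.53 ± 0.19) and Hoxd9 (0.82 ± 0.14) were higher, and the 4 genes from Hoxd10 on were lower. Of 7 Hoxb genes tested, Hoxb2 to Hoxb6 were higher, by 2.36 ± 0.24 for Hoxb5 up to 3.79 ± 0.28 for Hoxb2, and Hoxb9 was lower (-4.14 ± 0.82) at a level of at most 0.601 CPM. The higher Hoxc genes had larger log2 fold changes than any higher gene of the other clusters. Hoxc6 (ENSMUSG00000001661, chr15:102998257-103011881), a gene of the anterior forelimb and shoulder level, had 5.26, 4.57, 5.15 and 4.18 CPM in Supraspinatus, against 0.0560, 0.0669, 0.0420 and 0.0334 CPM in Flexor (6.57 ± 0.24, adjusted p = 5.4e-07). Hoxc5 (6.64 ± 0.36) and Hoxc4 (5.52 ± 0.42) moved with it, and these 3 were the Hoxc genes with enough reads to be tested. The annotated spans of Hoxc5 and Hoxc6 overlap on one strand, as do those of Hoxa3 and Hoxa5, so reads there may be split between neighbours. Without Supraspinatus replicate 4 Hoxb9 differed by -6.01, without Flexor replicate 1 Hoxc4 differed by 6.20, and without Flexor replicate 4 Hoxa9 passed (0.30, adjusted p = 0.0447). Hoxa9 also passed with the muscle marker level as a covariate (0.60, adjusted p = 0.0193).

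**Figure D2:**
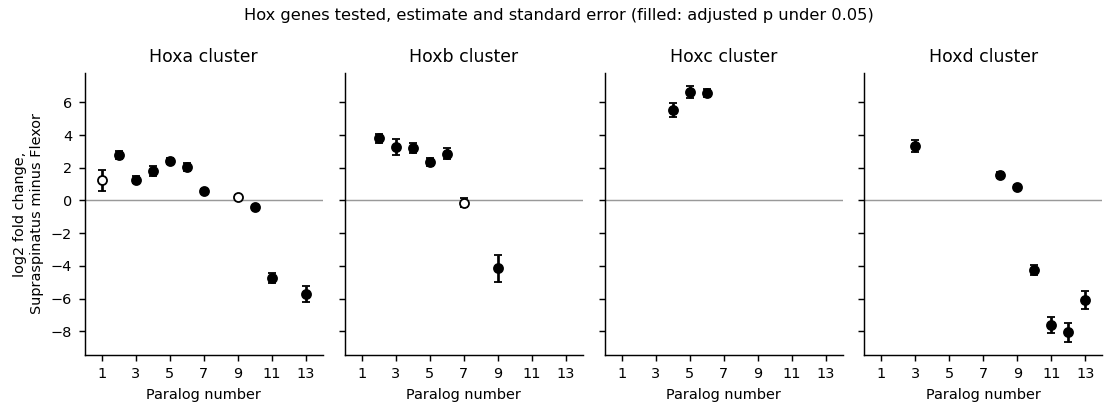
Log2 fold change of Supraspinatus over Flexor with its standard error for each tested Hox gene, by paralog number, with a panel per cluster. Filled points passed an adjusted p of 0.05, and genes with high paralog numbers in the Hoxa, Hoxb and Hoxd clusters lie below 0 while most others lie above it.

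Genes of the proximal limb moved the other way. Of 17 tested, from a list chosen with the same knowledge as the distal list, 10 were higher and 4 lower, with a median of 0.82. Shox2 (ENSMUSG00000027833, chr3:66971727-66981771), needed for the upper arm, had 5.03, 5.87, 6.01 and 5.87 CPM in Supraspinatus, against 0.747, 0.516, 0.756 and 0.484 CPM in Flexor (3.18 ± 0.20, adjusted p = 2.35e-06). Meis2 (3.92 ± 0.33) and Meis1 (2.01 ± 0.14), TALE homeobox factors that mark the proximal limb, Irx3 (2.68 ± 0.26) and Pbx3 (1.16 ± 0.14), a partner of Meis and Hox proteins, were higher as well. The nuclear receptor Nr2f2 was lower (-1.71 ± 0.12).

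Limb identity genes moved in both directions. Pitx1 (ENSMUSG00000021506, chr13:55825051-55836192), the homeobox gene known for setting hindlimb identity, had 12.5, 13.7, 9.34 and 11.9 CPM in Supraspinatus, against 0.159, 0.201, 0.168 and 0.334 CPM in Flexor. It was the gene with the largest increase under the naming rule (5.77 ± 0.26, adjusted p = 7.96e-07). Tbx5 (ENSMUSG00000018263, chr5:119832668-119885219), the T-box gene of the forelimb, was present in both tendons, with 18.0, 18.1, 18.96 and 23.0 CPM in Supraspinatus, against 43.9, 51.3, 44.5 and 53.6 CPM in Flexor (-1.31 ± 0.11, adjusted p = 1.29e-05). Tbx4, its hindlimb counterpart, was also lower in Supraspinatus (-2.34 ± 0.14), as was Tbx18 (-0.94 ± 0.17), while Tbx15 was higher (0.55 ± 0.12).

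Genes of tendon cells differed in both directions. Of 22 tenogenic genes, 9 were higher, 5 lower and 8 did not pass, with a median of 0.39. Scx (ENSMUSG00000034161, chr15:76457452-76459458), which encodes scleraxis, the transcription factor of tendon progenitors, had 42.7, 34.3, 49.4 and 89.8 CPM in Supraspinatus, against 5.88, 4.48, 3.28 and 5.05 CPM in Flexor. Every Supraspinatus library was above every Flexor library, and replicate 4 was the highest (3.53 ± 0.31, adjusted p = 1.76e-05). Kera, a keratan sulfate proteoglycan of collagen fibrils, had 199.7, 80.8, 145 and 815 CPM in Supraspinatus, against 36.8, 18.4, 33.0 and 22.3 CPM in Flexor (3.49 ± 0.67, adjusted p = 0.00226). Tnc, the matrix protein tenascin-C, had 80.3, 29.3, 134 and 327 CPM in Supraspinatus, against 19.4, 11.7, 21.9 and 19.9 CPM in Flexor (2.97 ± 0.61, adjusted p = 0.00327). In both genes Supraspinatus replicate 4 stood highest and replicate 2 lowest, yet no library overlapped with the other tendon. Ptx4 (2.78 ± 0.53), Cilp2 (2.30 ± 0.30), Thbs4 (1.36 ± 0.44) and Egr1 (1.01 ± 0.17), a stretch-induced factor of tendon, were higher too, although the Thbs4 ranges overlapped. Without Supraspinatus replicate 4 the differences were 2.35 for Kera, 2.14 for Tnc and 2.04 for Ptx4. Thbs4 no longer passed without Supraspinatus replicate 3 (adjusted p = 0.0714) or 4 (0.0797) or without Flexor replicate 1 (0.0702) or 2 (0.0779).

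Not all tendon markers shared that direction. Tnmd (ENSMUSG00000031250, chrX:133850980-133865577), the membrane protein tenomodulin of mature tendon cells, had 167, 74.5, 113 and 249 CPM in Supraspinatus, against 109, 92.4, 114 and 80.4 CPM in Flexor, and did not pass (0.61 ± 0.31, adjusted p = 0.141). The tendon homeobox gene Mkx did not pass either (-0.28 ± 0.23, adjusted p = 0.347). Comp, a matrix protein that binds collagen, had 1436, 978, 1724 and 1955 CPM in Supraspinatus, against 2757, 3561, 2666 and 5112 CPM in Flexor (-1.21 ± 0.27, adjusted p = 0.00459), and every Flexor library was the higher. Chad (-1.17 ± 0.29), Thbs2 (-1.12 ± 0.26) and Dcn (-0.77 ± 0.14), a proteoglycan of collagen fibrils, and Egr2 (-2.45 ± 0.33), which myelinating Schwann cells also express, were lower. Tnmd passed without Supraspinatus replicate 2 (0.82, adjusted p = 0.0229), and Mkx passed without replicate 4 (-0.54, adjusted p = 0.0373).

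The main fibrillar collagens did not differ past the threshold. With one exception this held for all 11 tested, since none was higher and 1 was lower, Col2a1, the collagen of cartilage (-2.79 ± 0.55). Col1a1 (ENSMUSG00000001506, chr11:94936224-94953042), the main tendon collagen, had 4012, 1796, 3817 and 9746 CPM in Supraspinatus, against 5270.3, 4163, 5001 and 3233 CPM in Flexor. Supraspinatus replicate 2 lay below and replicate 4 above all Flexor libraries, and the difference was 0.13 ± 0.42 (adjusted p = 0.823). Among genes that process and crosslink collagen, 13 of 36 tested were higher and 1 was lower. The higher ones included Colgalt1 (2.33 ± 0.12), which glycosylates collagen, P4ha3 (2.40 ± 0.25), a prolyl 4-hydroxylase, Crtap (2.004 ± 0.26) and P3h4 (1.68 ± 0.15), of the prolyl 3-hydroxylation complexes, and Bmp1 (1.79 ± 0.26), the procollagen C-proteinase. The share of the list called in either direction, 38.9%, was near that of all genes, 44.2%. Over all genes 23.3% were higher and 20.9% lower, a more even split than among these processing genes. Supraspinatus replicate 4 decided several values of the collagen and processing genes. Without it Col1a1 differed by -0.47 and Col2a1 by -3.77, 3 fibrillar collagens were lower and 5 processing genes were lower. Without Supraspinatus replicate 2, 1 fibrillar collagen was higher, and without Supraspinatus replicate 1 or Flexor replicate 2, 3 or 4 no processing gene was lower.

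Among the matrix lists the largest log2 fold change was that of a matricellular gene, and most of the larger differences were decreases. Coch (ENSMUSG00000020953, chr12:51593341-51605771), which encodes cochlin, a secreted protein first known from the inner ear, had 35.8, 10.5, 14.2 and 46.1 CPM in Supraspinatus, against 3639, 3474, 4275 and 6073 CPM in Flexor. Every Flexor library was above every Supraspinatus library, with a difference of -7.35 ± 0.56 (adjusted p = 7.07e-06). Spp1, the bone and wound protein osteopontin, had 10.01, 11.3, 47.1 and 6.09 CPM in Supraspinatus, against 614, 1134, 743 and 1288 CPM in Flexor (-5.66 ± 0.69, adjusted p = 0.000131). Both belong to a list of matricellular proteins of which 5 of 28 tested were higher and 11 lower. Smoc1 (-2.63 ± 0.31), Wisp2 (-2.56 ± 0.23), a CCN family member, and Sparcl1 (-2.04 ± 0.16) were also lower in Supraspinatus. Of 24 elastic fibre genes, 5 were higher and 6 lower, with Eln, which encodes elastin, at 28.4 ± 6.87 CPM in Supraspinatus and 239.8 ± 96.8 CPM in Flexor (SD, n = 4 each; -3.08 ± 0.29). Efemp1 (-2.50 ± 0.37) and Fbln1 (-1.36 ± 0.16), fibulins that associate with elastic fibres, were lower too. Of 9 fibril-associated collagens, Col22a1 (1.72 ± 0.25), known from the muscle and tendon junction, and Col14a1 (1.19 ± 0.34) were higher and 5 were lower. Matrix proteases and their inhibitors counted 7 higher and 6 lower of 37, a share of 35.1%, with Timp2 (2.02 ± 0.18), a metalloprotease inhibitor, among the higher and the aggrecanase Adamts5 (-1.56 ± 0.11) among the lower. Without Supraspinatus replicate 3 Spp1 differed by -6.71, and without replicate 4 the proteases counted 10 lower. Without Flexor replicate 1 or 2, 3 matricellular genes were higher.

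The promoter of Coch is shown because the gene had the largest difference of this matrix group. The sequence is the RefSeq record of GRCm38.p6, chr12:51593091-51593390 on the plus strand, with the same span as above. Capitals mark TTTATA, the reverse complement of TATAAA. This match begins at base 4 from the start, so it lies after the start and not before it.
Coch: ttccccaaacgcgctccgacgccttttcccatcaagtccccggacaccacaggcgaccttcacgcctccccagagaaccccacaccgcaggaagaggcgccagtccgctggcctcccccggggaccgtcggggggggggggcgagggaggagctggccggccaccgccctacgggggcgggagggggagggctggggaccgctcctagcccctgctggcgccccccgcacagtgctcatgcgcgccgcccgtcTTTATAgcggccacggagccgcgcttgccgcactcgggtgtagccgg

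**Figure D3:**
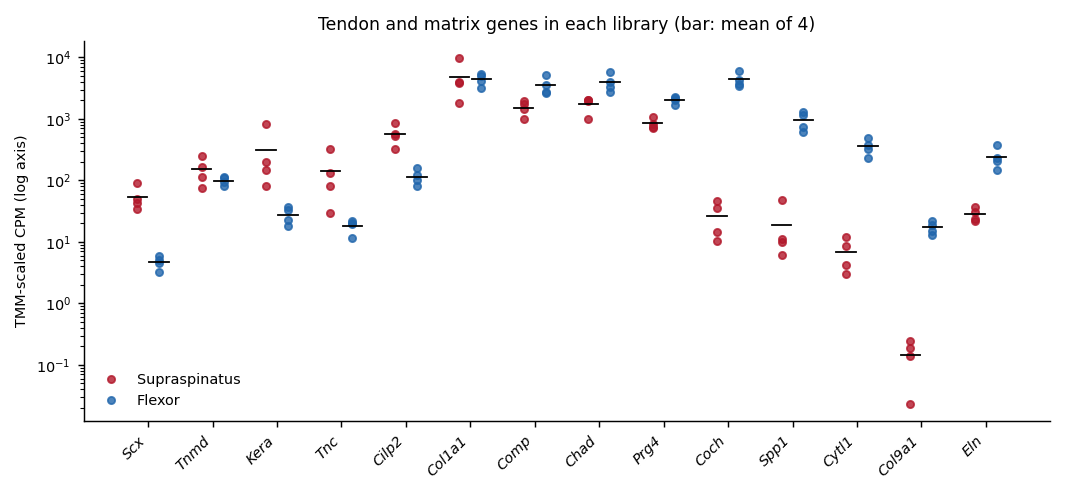
TMM-scaled CPM of 14 tendon and matrix genes in each library, on a log axis, with Supraspinatus in red left of Flexor in blue and a bar at each mean of 4. Scx, Kera, Tnc and Cilp2 lie higher in Supraspinatus, Tnmd and Col1a1 overlap, and Comp, Chad, Prg4, Coch, Spp1, Cytl1, Col9a1 and Eln lie lower.

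Most cartilage genes were lower in Supraspinatus. Of 25 tested, 1 was higher and 16 were lower, with a median of -1.54. Col9a1 (ENSMUSG00000026147, chr1:24177610-24252684), a chain of the type IX collagen that coats cartilage fibrils, had 0.186, 0.1397, 0.0234 and 0.241 CPM in Supraspinatus, against 21.7, 12.96, 15.1 and 18.9 CPM in Flexor (-6.83 ± 0.41, adjusted p = 2.07e-06). The other type IX chains, Col9a3 (-4.60 ± 0.47) and Col9a2 (-4.03 ± 0.46), moved with it. Cytl1, a secreted factor of chondrocytes, had 8.64, 4.16, 11.97 and 3.01 CPM in Supraspinatus, against 322, 377, 230.3 and 497 CPM in Flexor (-5.68 ± 0.48, adjusted p = 1.34e-05). Snorc (-5.78 ± 0.73), Clec3a (-3.88 ± 0.42) and Hapln1 (-3.47 ± 0.47), which links aggrecan to hyaluronan, followed. Acan, which encodes aggrecan, ranged more widely, with 6.09, 3.01, 47.4 and 20.4 CPM in Supraspinatus and 14.003, 15.8, 11.003 and 32.6 CPM in Flexor, and did not pass (0.07 ± 0.71, adjusted p = 0.949). Sox9, the cartilage master factor, did not pass (0.11 ± 0.25, adjusted p = 0.737), and Sox6, also a muscle gene, was the member that rose (1.10 ± 0.11). Chondrocyte markers took between 0.00176% and 0.00925% of counts in Supraspinatus and between 0.0381% and 0.0788% in Flexor, and how far chondrocytes entered each sample was not tested. Cytl1 made 10.7% of these counts in Supraspinatus and 71.9% in Flexor, and without it the shares lay between 0.00138% and 0.00897% in Supraspinatus and between 0.0123% and 0.0205% in Flexor. Of 9 bone genes tested, 4 were lower and none higher, the lower ones being Spp1, Dlx5 (-3.55 ± 0.43), Ibsp (-3.11 ± 0.45), bone sialoprotein, and Phex (-2.88 ± 0.30). Acan changed sign without Supraspinatus replicate 3 (-0.92) and without Flexor replicate 1 (-0.04) or 3 (-0.11), and Sox9 without Supraspinatus replicate 3 (-0.07) or Flexor replicate 3 (-0.07). Hapln1 differed by -4.27 without Supraspinatus replicate 3 and Snorc by -4.78 without Flexor replicate 4. Without Supraspinatus replicate 2, 3 cartilage genes and 1 bone gene were higher, and without Flexor replicate 4, 2 cartilage genes were.

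Genes of the gliding surface were split. Prg4 (ENSMUSG00000006014, chr1:150449412-150466165), the lubricant proteoglycan of synovium and tendon surface, had 722, 837, 1091 and 737 CPM in Supraspinatus, against 1693, 2274, 2026 and 2193 CPM in Flexor. All 4 Flexor libraries were above all Supraspinatus libraries (-1.27 ± 0.17, adjusted p = 0.000214). Has2, a hyaluronan synthase, was lower (-1.17 ± 0.17), whereas Clic5 (0.83 ± 0.16) and Tnfaip6 (0.75 ± 0.14), which binds hyaluronan, were higher. In all, 5 of 17 were higher and 6 lower. Msln, the surface protein mesothelin, was among the 12 largest decreases (-6.37 ± 0.45). Without Supraspinatus replicate 1 it differed by -6.99, and 3 genes of the list were higher without Supraspinatus replicate 2 or Flexor replicate 1 or 2.

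Among signalling genes, several secreted inhibitors differed by over 8-fold. Of 37 BMP and GDF genes, 15 were higher and 7 lower. Grem1, a secreted BMP antagonist, had 0.0723, 0.127, 0.304 and 0.153 CPM in Supraspinatus, against 16.6, 13.2, 7.95 and 108 CPM in Flexor. Flexor replicate 4 was well above the other Flexor libraries, and all 4 were above Supraspinatus (-7.80 ± 1.06, adjusted p = 0.000255, and -6.26 without that replicate). Bmper (-4.42 ± 0.39), another extracellular BMP regulator, was lower, whereas the antagonist Nog was higher (2.41 ± 0.31). Bmp6 (1.86 ± 0.20), the receptor Bmpr1a (1.12 ± 0.12) and the inhibitory Smad6 (2.03 ± 0.13), a target of BMP signalling, were higher, while Id2 (-1.09 ± 0.13), also a BMP target, was lower. In the TGF-beta list 8 of 18 were higher and 3 lower, with Smad7, the inhibitory Smad of that pathway (1.55 ± 0.13), and Smad3, a transducer (0.90 ± 0.11), among the higher.

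Wnt genes counted 12 higher and 16 lower of 43 tested. Frzb (ENSMUSG00000027004, chr2:80411970-80447625), a secreted Wnt antagonist of joints and cartilage, had 1.31, 1.36, 1.17 and 1.94 CPM in Supraspinatus, against 94.4, 119.8, 90.9 and 263 CPM in Flexor (-6.62 ± 0.42, adjusted p = 2.66e-06). Sfrp5, of the same family, had 0.671, 0.610, 0.269 and 0.602 CPM in Supraspinatus, against 72.8, 40.9, 27.1 and 35.4 CPM in Flexor (-6.35 ± 0.39, adjusted p = 2.42e-06). Both were lower in every Supraspinatus library. The family member Sfrp2 was higher (3.34 ± 0.74, and 2.34 without Supraspinatus replicate 4), as were the agonist Rspo1 (2.68 ± 0.21) and the receptor Fzd7 (1.91 ± 0.15), whereas the receptor Fzd3 was lower (-2.89 ± 0.28).

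Growth factor and hedgehog genes were mixed. The FGF list counted 8 higher and 8 lower of 26, with the ligands Fgf9 (1.96 ± 0.11) and Fgf18 (1.91 ± 0.21) and the carrier Fgfbp1 (4.02 ± 0.44) higher and the receptor Fgfr2 lower (-2.63 ± 0.33). Of 16 IGF genes, 8 were higher and 3 lower. Igfbp7, a binding protein, had 481, 614, 675 and 696 CPM in Supraspinatus, against 109, 106, 100.5 and 86.0 CPM in Flexor (2.62 ± 0.15, adjusted p = 1.48e-06), while the binding proteins Igfbp2 (-6.05 ± 0.61) and Igfbp4 (-2.31 ± 0.33) were lower. Of 14 hedgehog and enthesis genes, 3 were higher and 5 lower. The hedgehog targets Ptch1 (-1.45 ± 0.18) and Gli1 (-1.30 ± 0.19) were lower, and the co-receptors split, with Gas1 higher (1.67 ± 0.18) and Cdon lower (-0.71 ± 0.14). In the axon guidance list 16 of 49 were higher and 15 lower. Unc5a (ENSMUSG00000025876, chr13:54949411-55006018), a netrin receptor, had 28.0, 21.4, 26.5 and 29.8 CPM in Supraspinatus, against 2.01, 1.90, 1.30 and 1.38 CPM in Flexor (4.00 ± 0.18, adjusted p = 8.09e-07). Igfbp2 differed by -5.35 without Flexor replicate 1.

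Mechanosensitive channels and connexins counted 5 higher and 6 lower of 16. Panx1 (ENSMUSG00000031934, chr9:15002128-15045478), which forms ATP-releasing channels, had 48.8, 35.5, 56.2 and 36.9 CPM in Supraspinatus, against 1.83, 2.40, 2.70 and 1.75 CPM in Flexor (4.35 ± 0.21, adjusted p = 8.82e-07). The stretch-activated channels Piezo1 (1.77 ± 0.20) and Piezo2 (1.57 ± 0.25) were higher. Gjb2, a connexin of epithelia, was lower (-7.30 ± 0.42), as were the vascular connexins Gja4 (-1.86 ± 0.19) and Gja5 (-1.31 ± 0.24). Without Supraspinatus replicate 1, Gjb2 differed by -8.01.

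**Figure D4:**
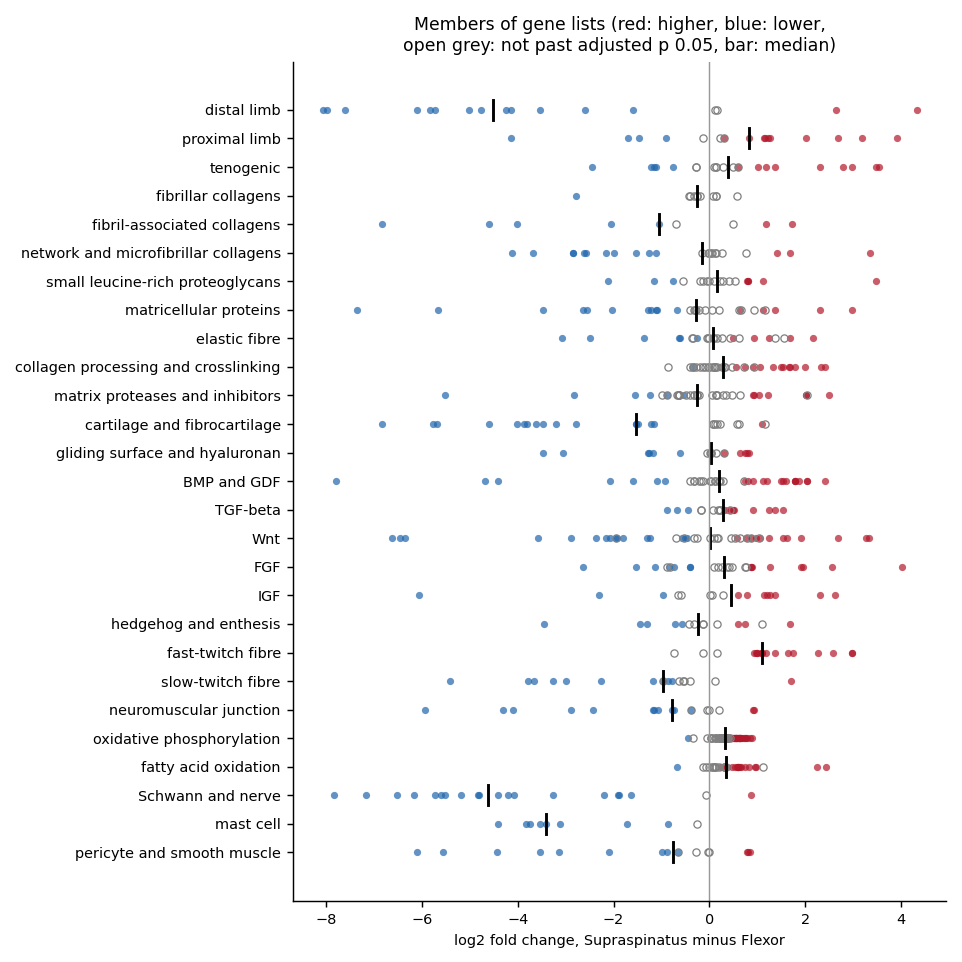
Log2 fold change of Supraspinatus over Flexor for the tested members of 27 gene lists, with red points higher, blue points lower, open points not past an adjusted p of 0.05 and a bar at each list's median. Members with no read in any library of a tendon are not drawn. Distal limb, cartilage, slow-twitch, nerve and mast cell genes lie mainly below 0, and fast-twitch genes mainly above it.

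Muscle transcripts differed in kind as well as in amount. Of 18 fast-twitch genes, 15 were higher and none lower in Supraspinatus, with a median of 1.10. Actn3 (ENSMUSG00000006457, chr19:4861216-4877909), the alpha-actinin of fast glycolytic fibres, had 7121, 7614, 6712 and 7445 CPM in Supraspinatus, against 1810.2, 1430.3, 697 and 928 CPM in Flexor (2.57 ± 0.28, adjusted p = 6.54e-05). Mybpc2 (2.97 ± 0.34), the fast myosin-binding protein, and Pvalb (2.27 ± 0.25), the calcium buffer parvalbumin, followed. Of 17 slow-twitch genes, 1 was higher and 10 were lower, with a median of -0.96. Tnni1 (ENSMUSG00000026418, chr1:135779434-135810989), slow troponin I, had 6.60, 3.33, 4.02 and 3.92 CPM in Supraspinatus, against 81.9, 60.6, 48.3 and 56.5 CPM in Flexor (-3.79 ± 0.25, adjusted p = 2.96e-06). Slow troponin C, Tnnc1 (-3.66 ± 0.19), and Sln (-5.41 ± 0.39), a small inhibitor of the calcium pump, were lower too, and Atp2a2, the slow and cardiac calcium pump, was the member that rose (1.70 ± 0.13). These slow genes fell while the muscle list as a whole took the larger share of counts in Supraspinatus.

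The myosin heavy chains were compared per transcript length, as shares of Myh4, Myh1, Myh2 and Myh7 together. Myh4, the fastest type, made 78.5% ± 2.83 of them in Supraspinatus and 49.8% ± 13.2 in Flexor. Myh1 made 18.3% ± 2.44 in Supraspinatus and 40.4% ± 7.15 in Flexor, and Myh2 made 3.22% ± 0.827 in Supraspinatus and 9.78% ± 8.97 in Flexor (SD, n = 4 each). Myh7, of the slow-twitch list, made only 0.0148% ± 0.0017 in Supraspinatus and 0.0448% ± 0.0236 in Flexor (SD, n = 4 each). Its highest share in any library was 0.0783%, in Flexor replicate 1. The shares of Myh4, Myh1 and Myh7 did not overlap between the tendons, and the Myh2 mean in Flexor rests on replicate 1, at 23.2%. These genes are near-identical in long stretches, so the split of reads among them is uncertain.

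Most genes of the neuromuscular junction were lower in Supraspinatus. Of 17 tested, 2 were higher and 11 lower, with a median of -0.79. Chrne (ENSMUSG00000014609, chr11:70614883-70619216), the epsilon subunit of the adult acetylcholine receptor, had 1.28, 0.610, 1.22 and 1.53 CPM in Supraspinatus, against 34.0, 18.7, 18.2 and 21.9 CPM in Flexor (-4.32 ± 0.31, adjusted p = 4.84e-06). Chrna1 (ENSMUSG00000027107, chr2:73563215-73580338), the alpha subunit, had 4.89, 1.82, 1.84 and 4.27 CPM in Supraspinatus, against 67.2, 55.2, 47.2 and 52.4 CPM in Flexor (-4.11 ± 0.34, adjusted p = 1.15e-05). Both subunits separated the tendons in every library. Chrnd, the delta subunit (-5.95 ± 0.49), Colq, which anchors acetylcholinesterase in the synapse (-2.89 ± 0.39), and Utrn, the dystrophin relative of the synapse (-1.16 ± 0.10), were lower as well, and Rapsn, which clusters the receptor, was higher (0.93 ± 0.13). Without Supraspinatus replicate 1, Colq differed by -3.48. Muscle marker shares were 20.3% in Supraspinatus and 12.7% in Flexor, and nerve marker shares were 0.149% in Supraspinatus and 0.459% in Flexor. The part of either tissue in these differences was not tested.

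The promoters of Chrne and Chrna1 are shown because these subunits moved together. They are RefSeq records of GRCm38.p6 with the same span as above, Chrne at chr11:70619145-70619444 and Chrna1 at chr2:73580289-73580588, both on the minus strand. Capitals mark the N-box CCGGAA, known from synaptic genes of muscle, and E-boxes, CANNTG, the letters bound by MyoD-type factors. The letters were searched on both strands, and the 2 motifs do not overlap here. Chrne holds an N-box at -76 and an E-box at -138 from the start, and Chrna1 E-boxes at -92, -73 and -44. Of all promoters of this length, 14.9% hold the N-box and 72.3% an E-box.
Chrne: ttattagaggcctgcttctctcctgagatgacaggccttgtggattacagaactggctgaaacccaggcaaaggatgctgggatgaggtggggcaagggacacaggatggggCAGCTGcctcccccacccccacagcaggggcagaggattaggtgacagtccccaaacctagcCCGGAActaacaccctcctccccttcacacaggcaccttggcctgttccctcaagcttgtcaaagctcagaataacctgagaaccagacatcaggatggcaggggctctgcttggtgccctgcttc
Chrna1: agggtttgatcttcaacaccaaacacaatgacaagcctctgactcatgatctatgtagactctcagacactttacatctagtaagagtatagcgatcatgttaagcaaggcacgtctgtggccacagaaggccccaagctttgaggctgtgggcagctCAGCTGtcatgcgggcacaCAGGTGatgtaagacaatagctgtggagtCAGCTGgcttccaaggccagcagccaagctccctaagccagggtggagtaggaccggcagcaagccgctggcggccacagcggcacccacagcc

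**Figure D5:**
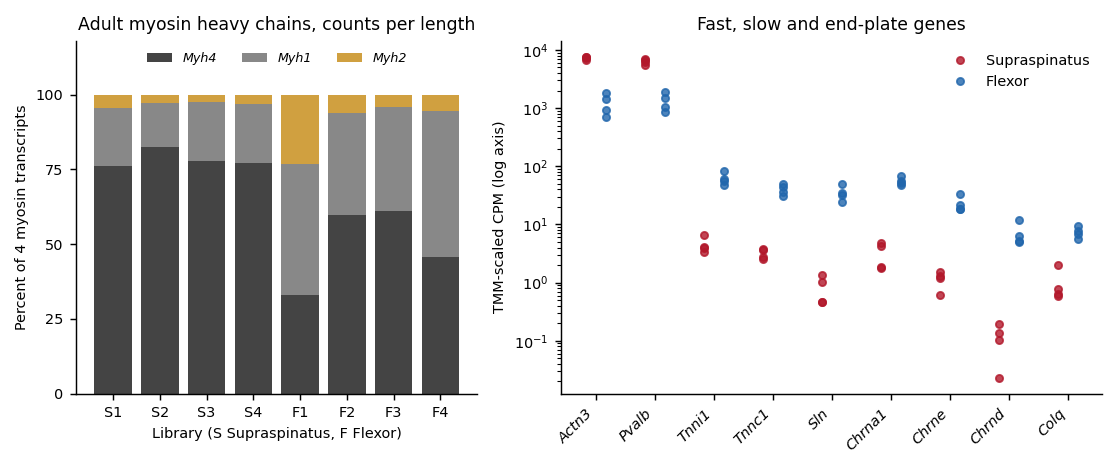
Left, the share of Myh4, Myh1 and Myh2 among 4 adult myosin heavy chain genes in each library, from counts per length, with Supraspinatus libraries S1 to S4 left of Flexor libraries F1 to F4. Right, TMM-scaled CPM on a log axis of fast (Actn3, Pvalb), slow (Tnni1, Tnnc1, Sln) and synaptic genes in each library, where the fast genes lie higher and the others lower in Supraspinatus.

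Muscle regulators and energy metabolism also differed. Of 23 myogenic and satellite cell genes, 11 were higher and 6 lower. Tbx1 (ENSMUSG00000009097, chr16:18580979-18590671), a T-box gene of muscle progenitors, had 41.0, 43.1, 38.7 and 43.1 CPM in Supraspinatus, against 4.89, 5.21, 4.39 and 4.80 CPM in Flexor (3.10 ± 0.09, adjusted p = 2.29e-07). Myod1 (1.76 ± 0.23), Lbx1 (1.61 ± 0.21), which guides muscle precursors into the limb, and Pax7 (1.12 ± 0.26), the satellite cell gene, were higher, and Mymx, which drives myoblast fusion, was lower (-3.21 ± 0.44). Of 76 oxidative phosphorylation genes 33 were higher and 1 lower, with Cox5a at 0.89 ± 0.15. The share called in either direction, 44.7%, was near that of all genes. Over all genes 23.3% were higher and 20.9% lower, a more even split than in this list. Without Supraspinatus replicate 2, 2 oxidative phosphorylation genes were lower. Fatty acid oxidation counted 17 higher and 1 lower of 33, including the carrier Fabp3 (2.43 ± 0.28) and Cpt2 (0.98 ± 0.08). Glycolysis counted 16 higher and 7 lower of 32, with Ldha (0.93 ± 0.11) higher and the glucose transporter Slc2a1 (-1.30 ± 0.17) lower. Skeletal muscle expresses many genes of these 3 lists, and its share of counts was higher in Supraspinatus. The part of muscle content in these differences was not tested.

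Most markers of nerve and mast cells were lower in Supraspinatus, and those of vessels were more often lower than higher. Of 20 Schwann and nerve genes, 18 were lower, with a median of -4.61, and the one that rose was Cryab (0.86 ± 0.16), which muscle also expresses. Mbp, the myelin basic protein, had 14.3, 14.6, 13.6 and 9.61 CPM in Supraspinatus, against 722, 678, 337 and 1022 CPM in Flexor (-5.73 ± 0.35, adjusted p = 2.17e-06). Sox10, the Schwann cell factor (-5.53 ± 0.44), moved with it, and no member was at 0 in either tendon. Among the 12 largest decreases, Ugt8a (-7.77 ± 0.64) and Fa2h (-7.27 ± 0.67), which make myelin lipids, Cldn19 (-7.23 ± 0.68) and Kcna1 (-6.62 ± 0.34), of the myelinated fibre, and Bcas1 (-7.21 ± 0.50) are genes that such cells express. Of 16 pericyte and smooth muscle genes, 3 were higher and 9 lower. Myh11, the smooth muscle myosin, had 26.1, 26.3, 25.7 and 25.7 CPM in Supraspinatus, against 810.3, 356, 687 and 378 CPM in Flexor (-4.43 ± 0.29, adjusted p = 2.89e-06), with Acta2 (-3.53 ± 0.29) and Cnn1 (-6.10 ± 0.42) moving with it. P2rx1, an ATP-gated channel of smooth muscle, was among the largest decreases (-7.63 ± 0.43). Of 9 mast cell genes 8 were lower and none higher, among them Tpsab1 (-4.41 ± 1.02), a tryptase with a near-identical copy in Tpsb2. Endothelial genes counted 4 higher and 11 lower of 20, with Cldn5 (-1.90 ± 0.22) and Vwf (-1.38 ± 0.16) lower and Sox17 higher (1.73 ± 0.23). Of 8 epidermis genes, 5 were lower, among them Krtdap (-8.69 ± 0.48), and 3 members of the list had no read in any Supraspinatus library. Without Supraspinatus replicate 1 Ugt8a differed by -8.68 and Bcas1 by -8.05, without replicate 2 Tpsab1 by -7.45, and without replicate 3 Krtdap by -9.40. The epidermis list summed to 0.00356% ± 0.000631 of Supraspinatus and 0.0242% ± 0.00364 of Flexor counts. Sbsn made 45.3% of these counts in Supraspinatus and 45.1% in Flexor. Scaled over all 16 libraries, Flexor averaged 104 CPM for Sbsn, 77.1 CPM for Dmkn and 32.7 CPM for Krtdap. The keratins Krt14 and Krt15 averaged only 0.200 and 0.271 CPM in Flexor on that scale.

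Immune genes that passed were more often lower than higher in the macrophage, complement and cytokine lists. Over all genes tested 44.2% were called in either direction, 23.3% higher and 20.9% lower. Of 17 macrophage markers 4 were lower and none higher, a share of 23.5%, near the share of all genes called lower. Of 22 complement genes 7 were lower and none higher. That share, 31.8%, was below the share of all genes called in either direction and above that called lower. The lower complement genes included C7 (-4.92 ± 0.59), C4b (-2.20 ± 0.30) and C3 (-1.96 ± 0.24). Cytokines and chemokines counted 2 higher and 10 lower of 26. Their share called in either direction, 46.2%, was near that of all genes, whose calls were split more evenly between higher and lower. The alarmin Il33 was higher (1.47 ± 0.22) and Cxcl12 lower (-2.01 ± 0.18). Without Supraspinatus replicate 2 C7 differed by -5.53, without Supraspinatus replicate 1 or Flexor replicate 3 the macrophage list counted 2 lower, and without Flexor replicate 3 the cytokine list counted 6 lower. Ighm (ENSMUSG00000076617, chr12:113418558-113422730), the heavy chain of immunoglobulin M, had 181, 191, 191 and 225 CPM in Supraspinatus, against 8.21, 5.86, 8.33 and 12.4 CPM in Flexor (4.50 ± 0.22, adjusted p = 8.91e-07). The other B cell genes examined, Igkc, Jchain, Cd79a, Cd79b and Ms4a1, were below 1 CPM in all 8 libraries. These partners were chosen after the Ighm values were seen, and the source of the Ighm reads was not tested.

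Clock and early response genes held both directions. Of 22 clock genes, 7 were higher and 4 lower, with Dbp, a clock output factor, at 76.3, 62.3, 67.1 and 95.2 CPM in Supraspinatus, against 24.3, 14.7, 15.6 and 16.5 CPM in Flexor (2.08 ± 0.19, adjusted p = 1.95e-05), and Cry1 higher (1.30 ± 0.18) and Cry2 lower (-0.95 ± 0.12). The labels do not state the time of dissection. Of 32 immediate-early and heat shock genes, 13 were higher and 10 lower, with Klf2, a factor induced by flow, at 2.57 ± 0.14, Jund at 2.33 ± 0.16, the chaperone Hsph1 at 2.14 ± 0.16 and Myc at -1.63 ± 0.12. Of 29 mitotic genes, 4 were higher and 7 lower, with Tpx2, a spindle factor (2.60 ± 0.22), among the higher. The lower mitotic genes counted 2 without Supraspinatus replicate 1 or Flexor replicate 2, 3 without Supraspinatus replicate 2 or 3 or Flexor replicate 3, and 4 without Flexor replicate 4. The lower early response genes counted 5 without Supraspinatus replicate 1 or 3 or Flexor replicate 3, and 4 without Flexor replicate 2. Also among the 12 largest increases were Kcna7 (3.66 ± 0.21), a potassium channel of muscle, Carnmt1 (3.53 ± 0.23), a carnosine methyltransferase, Nr2f6 (3.57 ± 0.16), a nuclear receptor, Pm20d2 (3.85 ± 0.24), Atp13a5 (3.42 ± 0.36) and Frat2 (3.40 ± 0.21), a Wnt pathway gene.

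The levels of the leading genes in all 4 tendons are given as a description, scaled over all 16 libraries and with no test. Pitx1 averaged 12.4 ± 1.87 CPM in Supraspinatus, 0.226 ± 0.0863 CPM in Flexor, 19.3 ± 8.27 CPM in Achilles and 61.0 ± 15.7 CPM in Patellar. Hoxd13 averaged 0.127 ± 0.116 CPM in Supraspinatus, 8.68 ± 1.25 CPM in Flexor, 0.104 ± 0.0937 CPM in Achilles and 0.0154 ± 0.0181 CPM in Patellar, and Tbx5 20.3 ± 2.45 CPM in Supraspinatus, 50.8 ± 5.31 CPM in Flexor, 0.315 ± 0.151 CPM in Achilles and 7.88 ± 0.961 CPM in Patellar (SD, n = 4 each). Coch averaged 27.8 ± 17.9 CPM in Supraspinatus, 4591 ± 1281 CPM in Flexor, 75.8 ± 42.6 CPM in Achilles and 8.81 ± 2.15 CPM in Patellar, and Scx 56.3 ± 25.7 CPM in Supraspinatus, 4.90 ± 1.10 CPM in Flexor, 18.8 ± 5.32 CPM in Achilles and 102 ± 19.5 CPM in Patellar. Chrne averaged 1.21 ± 0.411 CPM in Supraspinatus, 24.3 ± 7.45 CPM in Flexor, 0.400 ± 0.248 CPM in Achilles and 0.108 ± 0.1402 CPM in Patellar. Ighm averaged 205 ± 19.7 CPM in Supraspinatus, 9.14 ± 2.88 CPM in Flexor, 25.1 ± 9.28 CPM in Achilles and 56.3 ± 26.4 CPM in Patellar, and Panx1 46.2 ± 10.5 CPM in Supraspinatus, 2.28 ± 0.492 CPM in Flexor, 6.57 ± 0.598 CPM in Achilles and 1.59 ± 0.262 CPM in Patellar. Of the 4 tendons, Flexor had the highest mean of Hoxd13, Tbx5, Coch and Chrne, and Supraspinatus that of Ighm and Panx1. The Flexor mean of Pitx1, Scx and Ighm was the lowest.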

How the data were processed

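RNA sequencing libraries of 4 tendons, with 4 libraries each, were deposited as raw read counts per gene for 41204 genes, and the 4 Supraspinatus and 4 Flexor columns were used here, matched to the labels by tendon and replicate number. Per the submitters' processing notes, HISAT2, FastQC, edgeR and the mm10 build were used; the counting program, its strand setting and the annotation release were not given in the sources used here. The authors also deposited a table of log2 fold changes, whose sign runs Flexor over Supraspinatus and was turned for the comparison, and adjusted p-values from edgeR, used only for the comparison named as theirs. Reads of overlapping or antisense genes may not have been told apart.

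Genes were filtered with filterByExpr, scaled with TMM and tested with edgeR 4.0.16 (glmQLFit with robust estimation, glmQLFTest, 2-sided) in R 4.3.3, on these 8 libraries with 1 mean per tendon and Benjamini-Hochberg adjustment over all genes tested, at a threshold of 0.05. The standard error is the absolute log2 fold change over the square root of F. DESeq2 1.42.0, limma 3.58.1 with voom, median-ratio size factors, other filters, marker covariates, all 16 libraries, a replicate block and leaving out single libraries were the alternatives. The procedure was tested on simulated data. Python 3.11.15 and matplotlib 3.10.9 made the summaries and plots.

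The members of the 38 lists and the lists of 14 other cell types were chosen with earlier results of these data known. Named genes were the 12 largest differences each way among genes past the threshold with a mean of at least 10 CPM in the higher tendon and no overlap, outside the cell type lists and predicted genes, up to 6 members per list by adjusted p, and a set panel. Further genes, including the whole Hox clusters, Lhx9, Thbs2, Rapsn and Cryab, were named after their values were seen, and values of some genes that the rule takes are not reported. Gene positions are those of GENCODE M21 on GRCm38, the mm10 assembly, where all 340 gene IDs looked up were found. With at least 86898889 reads per library, counting error is small beside the spread between libraries for all but the lowest genes.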

Additional observations from a re-analysis of the deposited data

Results flagged for a closer look

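In each tendon, a library was picked out where its gap to the nearest of the other 3 took more of the range of all 4 than Dixon's 95% critical value allows. This held for 48 of the 410 groups of 4 libraries examined, the genes with a fold change and the marker list shares, and chance gives about 1 in 20. Each value below is that gap as a share of the range.

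Supraspinatus replicate 4 was picked out most often, and each time as the highest. It held this place for Crtap at 0.975, Cxcl12 at 0.959, Rspo1 at 0.938, Bmp1 at 0.917, Hoxd3 at 0.910 and Col2a1 at 0.895. It did so as well for Tbx18 at 0.872, Pm20d2 at 0.850, Fgf18 at 0.841, Kera at 0.838 and Fbln1 at 0.835. Collagen-processing genes and a Wnt agonist are among these, and leaving the library out is reported beside the genes whose value it moved most.

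Supraspinatus replicate 1 was the highest for Hoxd12 at 1, the only library of its tendon with reads of that gene, and for Gjb2 at 0.942, Fgf9 at 0.887, Colq at 0.861 and Col28a1 at 0.853, and the lowest for Shox2 at 0.856. Supraspinatus replicate 2 was the highest for Tpsab1 at 0.917, Efemp1 at 0.906, Hoxa13 at 0.857, Dlx5 at 0.834 and the macrophage share at 0.844, and the lowest for Chad at 0.919. Supraspinatus replicate 3 was the highest for the bone marker share at 0.969, Hoxd11 at 0.928, Spp1 at 0.874, Hoxa7 at 0.868 and Hapln1 at 0.845.

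Flexor replicate 4 was the highest for the cartilage gene Snorc at 0.988, the BMP regulators Grem1 at 0.913 and Bmper at 0.850, Myc at 0.865 and Frzb at 0.832. It was the lowest for the endothelial gene Cldn5 at 0.931, Fabp3 at 0.880, Tpsab1 at 0.849 and Hoxa5 at 0.833. Flexor replicate 1 was the highest for Hoxa10 at 0.880, Lbx1 at 0.878, Igfbp4 at 0.860, Piezo2 at 0.846, Msln at 0.843 and Col22a1 at 0.837, and the lowest for the epidermis share at 0.836. Flexor replicate 2 was the highest for Lhx9 at 0.855. Flexor replicate 3 was the highest for Fgf18 at 0.847 and the lowest for Kcna1 at 0.889 and Smad7 at 0.843.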

How the results depend on the processing

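The number of genes that passed was 9536, of which 5026 were higher and 4510 lower. Median-ratio size factors, other filters, DESeq2 and limma with voom kept each of these totals over all genes within 1.5 times. So did leaving out the muscle or the other cell type lists. That step removes only the listed genes and keeps all others of those tissues, so the totals could hardly move. Leaving out single libraries gave 8232 to 9803 genes, with 4394 to 4936 higher and 3758 to 4867 lower. With a log2 fold change of 1 or more in either direction there were 4436, of which 2324 were higher and 2112 lower, and with all 16 libraries 2949 were lower. With muscle markers as a covariate 3903 passed, of which 2226 were higher and 1677 lower. The higher and lower counts of the gene lists were less stable than these totals. Of 104 such counts, 66 moved by over 1.5 times with the muscle covariate, 95 with the nerve covariate, 32 with all 16 libraries, 36 with the log2 fold change limit, 15 with a mean CPM of at least 1, 7 with the block, 5 without a filter and 2 with DESeq2.

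Without the most counted member of each marker list, chosen after seeing the data, the log2 ratio of marker shares was -0.77 for bone (-4.83 with it), -1.84 for chondrocyte (-3.43), -0.46 for adipocyte (-1.31), -0.20 for neutrophil (-1.40), -1.89 for pericyte and smooth muscle (-0.39), -2.92 for mast cell (-1.85), -0.97 for osteoclast (-0.15) and -0.68 for lymphocyte markers (0.15).

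With nerve markers as a covariate, a fit chosen after seeing the data, 1 gene passed, with 0 higher and 1 lower. Of 182 named genes that passed, 158 then kept their sign without passing and 23 changed sign. Among all named genes the sign changed for Adipoq (1.73), Cdon (0.28), Chad (1.16), Cldn19 (1.18), Clic5 (-0.093), Col14a1 (-1.05), Col1a1 (-0.36), Col28a1 (1.54), Col2a1 (1.47), Col9a2 (1.33), Col9a3 (1.09), Comp (0.71), Cryab (-0.034), Dlx5 (0.68), Egr2 (2.24), Fa2h (1.34), Fbln1 (0.47), Grem1 (2.74), Hoxb9 (3.06), Ibsp (1.79), Mkx (0.97), Smoc1 (1.15), Snorc (0.45), Sox10 (0.73), Thbs2 (0.84) and Tnfaip6 (-0.56). That covariate does not overlap between the tendons, so nerve content and tendon cannot be told apart.

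With the muscle covariate 27 named genes no longer passed, none of them changed sign, and Hoxa9 passed (0.60, adjusted p = 0.0193). The genes lost were Cdon, Chad, Clic5, Col14a1, Col22a1, Col2a1, Comp, Cox5a, Cry1, Cryab, Egr1, Has2, Hoxb9, Hoxd9, Lhx9, Omd, Pax7, Piezo2, Prelp, Ptx4, Rapsn, Tbx15, Tbx18, Thbs2, Thbs4, Tnfaip6 and Tpsab1. Cdon, Dcn, Hoxa10, Pax7 and Rapsn did not pass with all 16 libraries, Col14a1 and Thbs4 without a filter, and Thbs4 with voom. Among genes that did not pass, Acan changed sign with the stricter filter (-0.0123) and voom (-0.53), and over single libraries left out it ran between -0.92 and 0.50. Col1a1 changed sign with voom (-0.11) and ran between -0.47 and 0.39, Sox9 ran between -0.0721 and 0.32, Adipoq ran between -1.18 and 0.14, and Mkx was 0.0518 with the muscle covariate. The causes were not tested.

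Equal replicate numbers were not taken as pairs, because the labels do not say that they mark one animal. The correlations of deviations between the tendons were 0.0991, 0.177, -0.00445 and 0.294 for replicates 1 to 4. Of 8 libraries, 6 correlated best with their own number, so shared animals are possible and were not settled. If animals were shared, the main fit leaves out a pairing. With a replicate block 10369 genes passed, Acan was -0.60, Col1a1 was -0.13 and Hoxa9 passed (0.24), and no named gene that had passed was lost.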

Other observations

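Non-fibrillar collagens that passed the threshold were more often lower than higher in Supraspinatus. Of 23 network and microfibrillar collagens tested, 3 were higher, 11 were lower and 9 did not pass, with a median of -0.15. Col4a3, a chain of the type IV collagen of basement membranes, had 0.857, 0.660, 0.655 and 1.11 CPM in Supraspinatus, against 6.65, 3.72, 5.56 and 3.74 CPM in Flexor (-2.58 ± 0.27, edgeR adjusted p = 4.45e-05). Col4a4, its neighbour in the genome and partner in the same trimer, followed (-2.16 ± 0.19), as did Col4a6 (-3.68 ± 0.41). Col28a1, a collagen known from peripheral nerve, was lower (-2.61 ± 0.29), and nerve marker shares were 0.149% in Supraspinatus and 0.459% in Flexor. A link between them was not tested. Every Supraspinatus library was below every Flexor library in Col4a3. Col6a6, a type VI collagen chain, was the opposite case and higher in Supraspinatus (3.36 ± 0.50).

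Small leucine-rich proteoglycans, which coat collagen fibrils, counted 5 higher and 3 lower of 18 tested, with a median of 0.16. Prelp, which anchors basement membranes to connective tissue, had 3812, 2741, 4524 and 3681 CPM in Supraspinatus, against 1876, 2084, 1918 and 2561 CPM in Flexor (0.81 ± 0.18, edgeR adjusted p = 0.00481). Omd, which encodes osteomodulin, was higher as well (1.13 ± 0.24).

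Adipocyte markers counted 4 higher and 4 lower of 20 tested, and 7 were lower without Supraspinatus replicate 2. Car3, a carbonic anhydrase of fat and slow muscle, had 202, 598, 273 and 266 CPM in Supraspinatus, against 3554, 2329, 1817 and 1806 CPM in Flexor (-2.83 ± 0.37, edgeR adjusted p = 0.000206). Adipoq, a hormone of fat cells, had 9.40, 99.997, 15.4 and 34.9 CPM in Supraspinatus, against 55.3, 51.1, 37.6 and 35.2 CPM in Flexor, where Supraspinatus replicate 2 was above and the other 3 were below every Flexor library (-0.17 ± 0.60, adjusted p = 0.843). Without that replicate it passed (-1.18, adjusted p = 0.036), and it changed sign without replicate 1 (0.14) or 3 (0.08). The summed share of the list was 0.207% ± 0.0905 of Supraspinatus and 0.490% ± 0.100 of Flexor counts (SD, n = 4 each). Car3 made 14.6% of it in Supraspinatus and 52.9% in Flexor, and without Car3 the share was 0.177% ± 0.0747 in Supraspinatus and 0.231% ± 0.0297 in Flexor, with overlap.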
